A study of Neotoma stephensi and Rattus norvegicus with 6 samples.

Results

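The genes described here encode the proteins of the cytoplasmic ribosome, measured by RNA sequencing in the foregut of a herbivorous woodrat and of the laboratory rat. They were chosen by symbol: every symbol that starts with Rpl or Rps followed by a digit, or with Rplp, plus Rpsa and Fau, leaving out the Rps6k kinases. Of the 15481 genes in the count tables, 86 met this rule. A core of 78 of them encodes the proteins of the assembled particle, 46 in the large and 32 in the small subunit, and the other 8 are paralogs of core genes or proteins named after a ribosomal protein (Rpl3l, Rpl7l1, Rpl10l, Rpl22l1, Rpl36al, Rpl39l, Rps27l and Rps19bp1). In the tested set of 12603 genes, those with a level of 1 CPM or more (CPM being the read count scaled to library size) in 3 or more animals, 85 of the 86 were kept, among them every core gene. Rpl39l, with 6 reads in total, was the one left out.

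The study compared 3 wild-caught female Stephens' woodrats (Neotoma stephensi), fed juniper foliage until dissection the day after they reached the laboratory, with 3 female Sprague Dawley rats (Rattus norvegicus) from a commercial breeder, kept for months on standard chow. The labels call all 6 animals virgins, whereas the study's methods give this only for the lab rats. Each sample was a piece of the fornix ventricularis of the stomach from a separate animal, collected as polyA RNA, so p-values measure the spread between animals. Species, diet and origin differed together in this design and cannot be told apart. No genome of the woodrat was used: reads of both species were counted on mouse coding transcripts, which is why a complex with fixed proportions is of interest as a gauge of how evenly its genes were counted.

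Each ribosome carries 1 copy of most of these proteins, and the cell makes them in matched amounts and degrades those that find no partner. The large subunit joins amino acids and holds the tunnel through which the new protein leaves, and the small subunit reads the messenger RNA. The messages for ribosomal proteins start with a tract of pyrimidines through which their translation is controlled together with that of elongation factors, and they are among the most abundant in any growing tissue.

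The libraries held 5439642 to 7932637 counted reads. The 7 squamous epithelium markers did not move one way: their sum, 13686 to 34940 CPM in the woodrats against 10385 to 15584 CPM in the lab rats, was carried by Krt13 and Krt4, whereas involucrin (Ivl) stood at 7.82 to 11.3 CPM in woodrats against 195 to 383 CPM in lab rats. Of 6 glandular stomach markers, 5 were at 0 in all lab rats and had few reads in woodrats, the most in Muc5ac with 12 to 33. The remaining one, Atp4a, had 31 to 48 reads in woodrats against 35 to 67 in lab rats. In CPM it was lower in every woodrat, at 5.69 to 6.05 against 6.74 to 9.76. Sums of other markers differed between species as well. The 7 smooth muscle markers summed to 35165 to 112063 CPM in woodrats against 9363 to 16684 CPM in lab rats. For 7 leukocyte markers the sums were 11.3 to 30.7 CPM in woodrats and 187 to 293 CPM in lab rats. For 3 erythrocyte markers they were 11.96 to 35.9 CPM and 253 to 497 CPM, and for 5 proliferation markers 64.1 to 117 CPM and 211 to 291 CPM. The part of these differences in the results on ribosomal protein genes was not tested. In bulk tissue, fewer cells of a type and less RNA per cell cannot be told apart.

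Ribosomal protein messages were a large part of the counted reads in every animal, and the species did not separate. Of all reads, the 78 core genes held 10.1%, 13.6% and 9.71% in woodrats 1, 2 and 3 against 11.9%, 11.5% and 18.5% in lab rats 1, 2 and 3. Lab rat 3 was the highest of all, and woodrat 2 lay above lab rats 1 and 2, so that the ranges overlapped. The means were 11.1% ± 2.16 (SD, n = 3) in woodrats against 13.9% ± 3.93 (SD, n = 3) in lab rats, and an exact two-sided permutation test over animals gave p = 0.5, where the smallest p the design allows is 0.1. Without lab rat 3 the difference shrank from -2.79 to -0.53 percentage points.

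**Figure D1:**
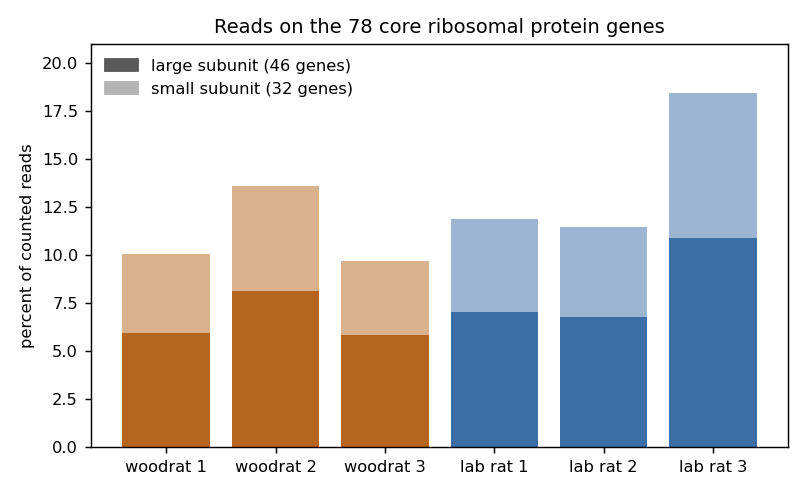
Percent of each animal's counted reads that fell on core ribosomal protein genes (vertical axis), with the large subunit as the darker lower segment and the small subunit as the paler upper one, for each of the 6 animals (horizontal axis). Lab rat 3 stands at 18.5%, while the other 5 animals lie between 9.71% and 13.6%.

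Within each species 1 animal stood above its fellows in all core genes. In lab rat 3 every one of the 78 core genes had a higher CPM than the mean of the other lab rats, with a median ratio of 2.15-fold, and the log2 ratios lay between 0.77 for Rpl7a and 1.48 for Rpl36a. Woodrat 2 likewise had a higher CPM than the mean of the other woodrats for all 78 genes, by a median of 1.31-fold. Woodrat 1 had 38 genes above and 40 below the mean of its fellows, with a median log2 ratio of -0.01. Other messages of the translation machinery moved with these animals. A list of 14 mRNAs that begin with the same pyrimidine tract, such as that of the elongation factor Eef1a1, summed to 32219 CPM in lab rat 3 against 20854 to 22195 CPM in the other lab rats, and to 30135 CPM in woodrat 2 against 20633 and 25088 CPM in the others. Lab rat 3 also had the highest summed erythrocyte markers, at 497 CPM, and the lowest scaling factor, at 0.836. What part these had in its high ribosomal protein level was not tested.

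Reads were divided between the subunits in nearly the same proportion throughout. For each read on a small subunit gene there were 1.45, 1.49 and 1.49 reads on large subunit genes in woodrats 1, 2 and 3, against 1.45, 1.44 and 1.43 in lab rats 1, 2 and 3. The lowest woodrat lay just above the highest lab rat. Mean ratios were 1.48 ± 0.022 (SD, n = 3) and 1.44 ± 0.010 (SD, n = 3), a difference of 0.04 on the log2 scale with p = 0.1 by the exact permutation test (adjusted p = 0.2 over the 2 values tested this way), the smallest p possible. As a mean of log2 CPM over genes, in which abundant genes weigh no more than rare ones, the difference was 0.01 (exact permutation p = 0.8).

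Gene by gene, levels were compared between the species by the quasi-likelihood test of edgeR with Benjamini-Hochberg adjustment over all genes tested (false discovery rate, FDR, below 0.01). Over all genes 20% were called, 9.71% in the direction of lower levels in woodrats. Among the 85 symbols tested, 2 were lower in woodrats, Rpl41 and Rpl7l1, and none was higher. Without adjustment, 8 symbols were lower and 2 higher at p below 0.05, beside 23.7% and 26% of all genes. DESeq2 called 5 symbols and 31.1% of all genes, and a fit with the replicate number as a block called none of the symbols and 5.68% of all genes. A gene that was not called is not shown to be equal in both species. The core genes had a median log2 fold change of -0.35, with 67 of 78 negative, beside a median of 0.03 over all genes. This direction rested on lab rat 3: without it the core median was 0.10, 37 of the 78 values changed sign and 48 were positive.

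The core genes lay close to each other compared with genes in general. Their log2 fold changes had an SD of 0.418, against 1.70 over all genes, and 65 of 78 (83.3%) lay within 0.5 of the core median, against 32.6% of all genes around theirs. All genes ran from -11.6 to 12.3 and were not matched to the core in abundance. The 14 messages with a pyrimidine tract, which do not form 1 complex, were as close: SD 0.368, with 85.7% within 0.5 of their median. The values still spanned 2.47 log2 units, from -1.88 for Rpl41 to 0.59 for Rpl37. The large subunit (median -0.35, SD 0.446) and the small subunit (median -0.37, SD 0.381) had similar centres. Leaving out any 1 animal kept the SD between 0.410 and 0.439. In CPM, all woodrats lay below all lab rats for 10 core genes, and all above for none, whereas this was so for 27.4% and 28.8% of all genes.

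**Figure D2:**
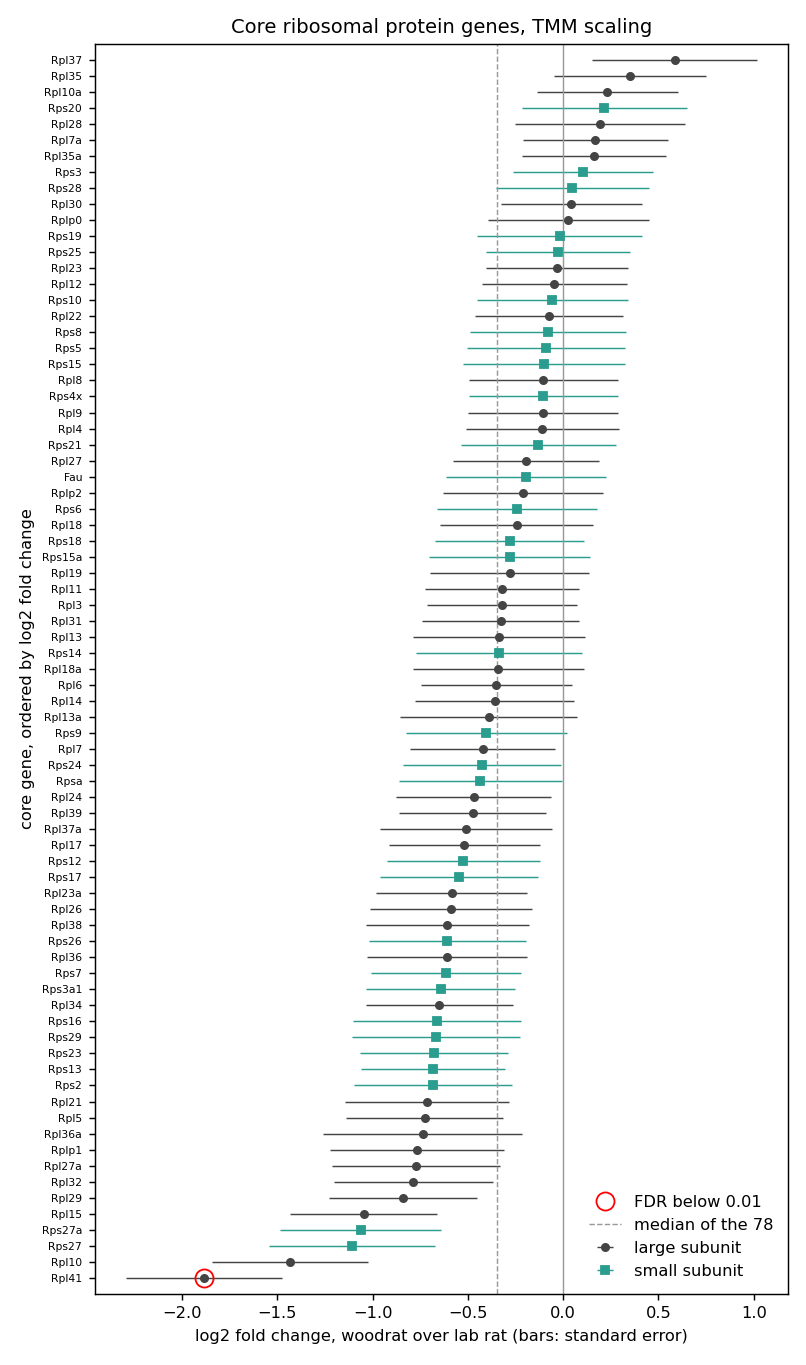
Log2 fold change of core ribosomal protein genes, woodrat over lab rat (horizontal axis), with bars of 1 standard error from the edgeR fit. Genes are ordered by value along the vertical axis, circles mark the large and squares the small subunit, the dashed line is the median of -0.35, and the red ring marks Rpl41, the one core gene with an FDR below 0.01.

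Because the total of the complex varied so much between animals, each gene was also described by its share of the reads on all core genes of the same animal, and tested with that sum as the library size. The share does not depend on how the libraries were scaled. Within a species, the coefficient of variation of the share over 3 animals had a median of 8.61% in woodrats against 5.05% in lab rats. It was larger in woodrats for 62 of 78 genes, and it was under 10% for 46 genes in woodrats against 73 in lab rats. Between species, the shares of 46 of the 78 core genes did not overlap. Woodrats were above for 25, which is 32.1% of the core, beside 29.5% of all genes scaled in the same way, and below for 21, which is 26.9%, beside 14.1% of all genes. In the remaining 32 genes the ranges overlapped. By the test relative to the core, 5.74% of all genes were called and 1 core gene, Rpl41. Without adjustment, 11 core genes had a p below 0.05, beside 34.1% of all genes. In this fit the spread between animals (biological coefficient of variation) was 47.8% over all genes, against 34.0% with TMM. A gene that did not pass relative to the core is therefore not shown to have an equal share. All genes had a median log2 fold change of 0.26 on this scale, against 0.01 for the core, so their shares are no like-for-like background.

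**Figure D3:**
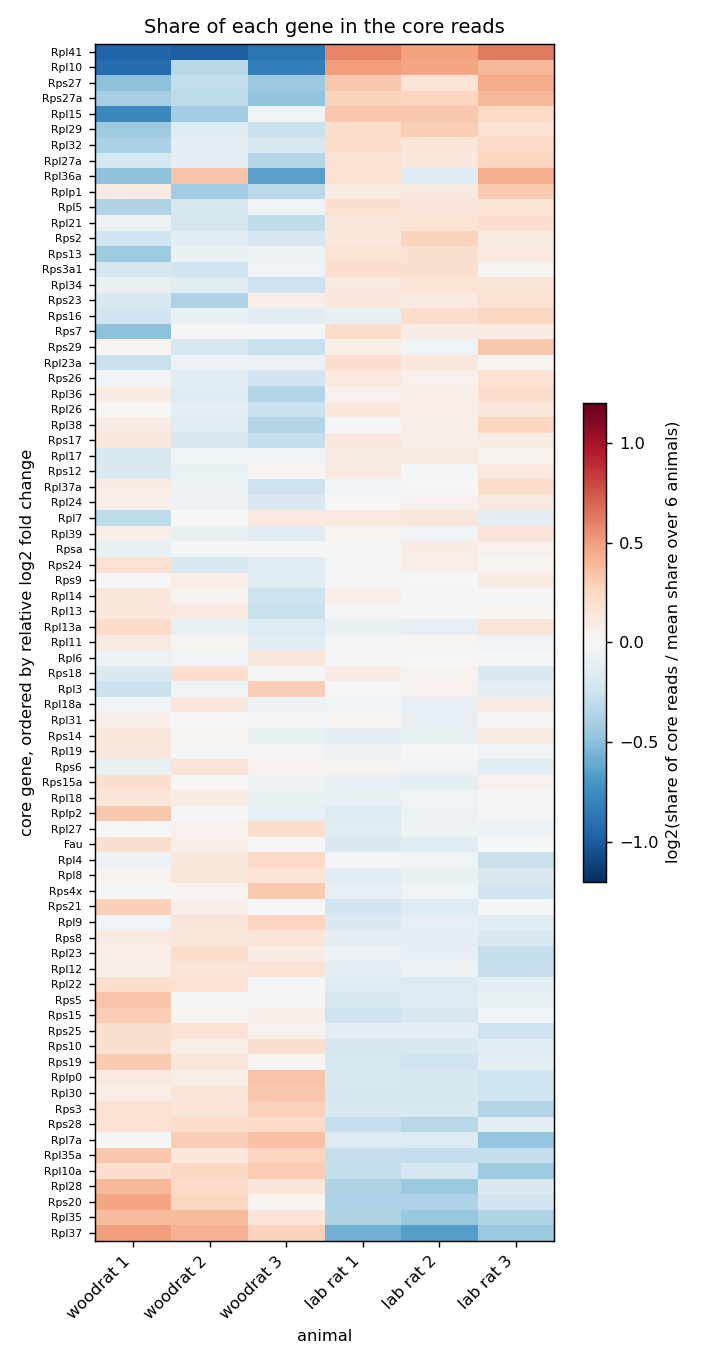
Share of core genes in the core reads of an animal, as the log2 of the share over its mean in all 6 animals (colour scale, red above and blue below the mean). Genes run down the vertical axis by their log2 fold change relative to the core, and the 6 animals stand along the horizontal axis. Rpl41 and Rpl10 at the top are low in each woodrat, and Rpl37, at the bottom, is high in each woodrat.

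Rpl41, a very short peptide at a contact between the subunits, was the core gene with the lowest level in woodrats relative to lab rats. It had 454, 532 and 393 CPM in woodrats 1, 2 and 3 and 1268, 1136 and 2686 CPM in lab rats 1, 2 and 3. All woodrats were below all lab rats. Rpl41 was lower by a log2 fold change of -1.88 (SE 0.41, FDR = 0.00811). As a share of core reads it stood at 0.404%, 0.397% and 0.431% in the woodrats against 1.18%, 1.10% and 1.22% in the lab rats, so the species differed far more than animals within either. Relative to the core the log2 fold change was -1.50 (SE 0.26, FDR = 0.00551). Both calls were near the threshold. In the first test the FDR was between 0.01 and 0.0314 with any 1 of the 6 animals left out, and relative to the core the call was lost without woodrat 1, woodrat 2, lab rat 1 or lab rat 2 (FDR 0.0162, 0.0292, 0.028 and 0.0192). A fit with the replicate number as a block gave FDRs of 0.0414 and 0.0189. The log2 fold change stayed between -1.39 without lab rat 3 and -2.11 without lab rat 2.

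Rpl37, a small zinc-binding protein of the large subunit, lay at the other end. Its levels were 1762, 1979 and 1224 CPM in the woodrats against 798, 721 and 1791 CPM in the lab rats. Lab rat 3 fell among the woodrats, and the log2 fold change of 0.59 (SE 0.43, FDR = 0.306) did not pass the test. In shares the groups separated, with 1.57%, 1.48% and 1.34% in woodrats against 0.742%, 0.699% and 0.811% in lab rats, and relative to the core the log2 fold change was 0.96 (SE 0.25, FDR = 0.0267), which did not pass the threshold of 0.01. Set against each other within each animal, these extremes gave 3.88, 3.72 and 3.11 reads on Rpl37 for each read on Rpl41 in the woodrats against 0.629, 0.635 and 0.667 in the lab rats, means that differ 5.55-fold. The genes were picked for this contrast, so the ratio is a description without a test.

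Rps27, a zinc finger protein of the small subunit, was also among the core genes with the lowest values, with a log2 fold change of -1.11 (FDR = 0.0718), and Rps27a, which is made as a fusion to ubiquitin, with -1.06 (FDR = 0.0761). In both, every woodrat was below every lab rat in CPM and in share. As they were named for low values in these same animals, this separation is no separate result. Among all core genes, woodrat shares lay below for 26.9%.

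After Rpl37 the core genes with the highest values were Rpl35, Rpl10a, Rps20 and Rpl28, and none of them passed the test. Rpl35 sits at the mouth of the exit tunnel and had 829, 986 and 570 CPM in woodrats against 474, 425 and 970 CPM in lab rats, with a log2 fold change of 0.35 (FDR = 0.505). Rpl10a forms the mobile stalk by which spent transfer RNA leaves and had a log2 fold change of 0.23 (FDR = 0.649). Rps20, of the head of the small subunit, had 0.22 (FDR = 0.719), and Rpl28, a protein found in eukaryotes but not in bacteria, had 0.19 (FDR = 0.756). Their CPM ranges overlapped through lab rat 3, while their shares of the core reads were all higher in every woodrat than in any lab rat. They were named for their fold changes in these same animals, so this separation is part of that ranking and no separate result. Woodrat shares lay above for 32.1% of all core genes.

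None of the 4 genes of the stalk that draws elongation factors to the ribosome passed the test relative to the core (FDR 0.235 to 0.712). Rplp0, its base and 1 of the 5 core genes with the highest mean CPM, had 4121, 4755 and 3911 CPM in the woodrats against 3203, 3036 and 6309 CPM in the lab rats (log2 fold change 0.03, FDR = 0.964, with a sign that varied between alternatives). Its share was 3.83% ± 0.39 (SD, n = 3) in woodrats against 2.93% ± 0.063 (SD, n = 3) in lab rats without overlap. Rpl12, which binds beside it, also had the higher share in every woodrat, 1.78% ± 0.066 against 1.47% ± 0.12 (SD, n = 3 each). The shares of the acidic tips of the stalk overlapped: Rplp1 held 1.90%, 1.34% and 1.43% in woodrats against 1.90%, 1.92% and 2.21% in lab rats. Rplp2 held 0.964% ± 0.16 and 0.864% ± 0.045 (SD, n = 3 each), with overlap.

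Rpl5 and Rpl11 enter the large subunit together with the 5S ribosomal RNA. Rpl5 took 1.53%, 1.72% and 1.91% of core reads in the woodrats against 2.25%, 2.19% and 2.20% in the lab rats, so that every woodrat was lower. The share of Rpl11 overlapped, with means of 1.26% ± 0.11 and 1.24% ± 0.030 (SD, n = 3 each). Relative to the core, neither passed the test (FDR 0.303 and 0.973).

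Of the proteins that line the exit tunnel, Rpl4 and Rpl39 overlapped between the species. Rpl4 had shares of 3.22% ± 0.34 in woodrats against 2.78% ± 0.26 in lab rats (SD, n = 3 each), and Rpl39, a short protein, 0.202% ± 0.014 and 0.215% ± 0.015. Rpl17, of the same tunnel, was lower in every woodrat, at 1.29% ± 0.078 against 1.46% ± 0.034 (SD, n = 3 each). Around the peptidyl transferase centre, where the peptide bond forms, Rpl3 overlapped at 2.03% ± 0.40 and 1.99% ± 0.11, while Rpl8 was higher in every woodrat at 1.53% ± 0.066 against 1.30% ± 0.044 (SD, n = 3 each). None of these 5 passed the test relative to the core (FDR 0.515 to 0.943).

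In the small subunit, Rps3, which lines the channel where messenger RNA enters, had the higher share in every woodrat, with 1.51%, 1.47% and 1.61% against 1.18%, 1.17% and 1.04% in lab rats. Rps2, its neighbour at that channel, had the lower share in every woodrat, with 1.91%, 2.06% and 1.96% against 2.45%, 2.71% and 2.41%. Rps23, of the decoding centre, was lower in every woodrat at 0.869% ± 0.14 against 1.06% ± 0.031 (SD, n = 3 each). Rps6, the substrate of the S6 kinases, overlapped at 2.86% ± 0.24 and 2.70% ± 0.16, as did Rpsa, known also as the laminin receptor, at 2.26% ± 0.070 and 2.38% ± 0.092, and Fau, made as a fusion to a ubiquitin-like protein, at 0.984% ± 0.067 and 0.867% ± 0.056 (SD, n = 3 each). Rps4x, the last of the 5 genes with the highest mean CPM besides Rplp0, Rpl4, Rps6 and Rpsa, was higher in every woodrat at 2.55% ± 0.33 against 2.16% ± 0.13 (SD, n = 3 each). Relative to the core none of these 7 genes passed the test (FDR 0.234 to 0.837).

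The widest variation within a species was seen in woodrats. Rpl36a had a coefficient of variation of its share of 39.2% in woodrats, with shares of 0.052%, 0.092% and 0.047%, and 20.2% in lab rats. Rpl15, named after its values were seen, followed with 24.9% in woodrats against 3.55% in lab rats, at 0.582%, 0.746% and 0.961% in woodrats 1, 2 and 3. All woodrats were still below all lab rats for Rpl15, whose log2 fold change was -1.05 (FDR = 0.0592).

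Taken pair by pair, animals of different species always differed more in how reads were divided among the 78 genes than animals of the same species. These are reads of messages counted on mouse transcripts, and the protein makeup of the ribosome was not measured. The SD over the 78 genes of the log2 read ratio, which measures how unevenly the genes differ whatever the total, was 0.0804 to 0.157 for the 3 pairs of lab rats, 0.201 to 0.269 for the 3 pairs of woodrats and 0.408 to 0.490 for the 9 pairs across species. Counting error alone would give 0.0213 to 0.0295. Woodrat pairs were thus all less even than lab rat pairs. Pairs share animals, so no test was made.

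**Figure D4:**
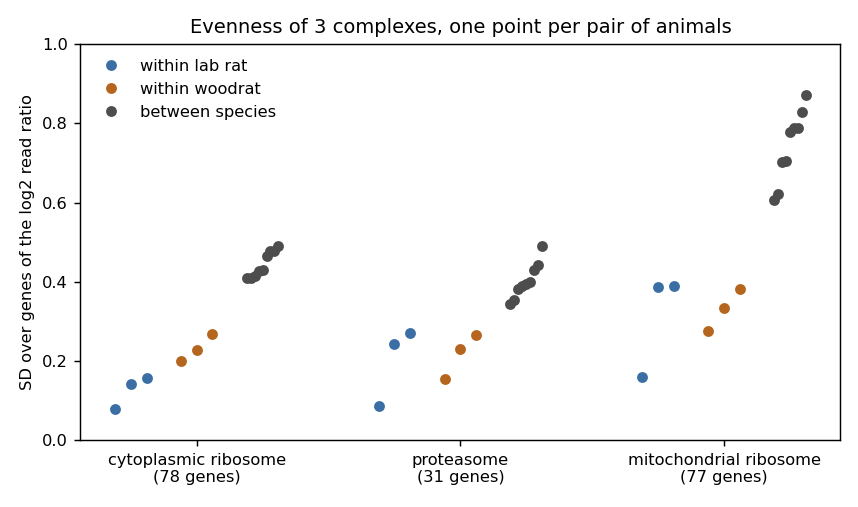
SD over genes of the log2 read ratio (vertical axis, 0 when all genes of a complex differ by the same factor) for each pair of animals, for the cytoplasmic ribosome, the proteasome and the mitochondrial ribosome (horizontal axis). For the cytoplasmic ribosome pairs of lab rats end at 0.157, pairs of woodrats at 0.269, and pairs across species start at 0.408.

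The proteasome and the mitochondrial ribosome, also complexes of fixed makeup, were used for comparison. The 31 proteasome genes had an SD across species of 0.343 to 0.491 by pair, and the SD of their log2 fold changes was 0.372 around a median of -0.37, close to that of the core ribosomal genes. The 77 mitochondrial ribosomal genes, with lower counts and a counting error of up to 0.155, gave 0.606 to 0.872 by pair and an SD of 0.707 around a median of -0.46. Of the proteasome genes 1 was called, lower in woodrats (Psmd14, log2 fold change -1.26, FDR = 0.00447, and 0.011 to 0.0262 with any 1 animal left out), and of the mitochondrial ones 9 were lower and 1 higher, beside 20% of all genes called. All 3 complexes thus had negative medians in the fit with all 6 animals.

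For 6 core genes the tables also hold a paralog, so that reads had to be assigned to 1 of a pair of close copies. The share of a pair that fell on the paralog was higher in every woodrat than in any lab rat for Rpl3l, Rpl10l, Rpl22l1 and Rps27l, each with p = 0.1 by the exact two-sided permutation test, the smallest possible, and an adjusted p of 0.15 over 6 pairs. For Rpl36al (exact permutation p = 0.2) and Rpl39l (exact permutation p = 1) the groups overlapped. How much of this is expression and how much the assignment of reads was not tested.

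Rpl10, which joins the large subunit late and reaches towards the peptidyl transferase centre, was low in woodrats at 216, 388 and 187 CPM against 556, 524 and 1058 CPM in the lab rats. The groups did not overlap, and the log2 fold change was -1.43 (SE 0.41, FDR = 0.0239). Its paralog Rpl10l, an intronless copy known for expression in testis, had 802, 997 and 725 CPM in woodrats against 708, 715 and 1310 CPM in lab rats, and it overlapped (log2 fold change -0.11, FDR = 0.815). Rpl10l thus held 78.8%, 72.0% and 79.5% of the reads of the pair in woodrats against 56.0%, 57.7% and 55.3% in lab rats. A gene known from testis held most reads of its pair in a stomach tissue of both species, and the levels of either gene alone are uncertain for this reason. Summed, the pair had a log2 fold change of -0.55 (SE 0.38, FDR = 0.269).

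Rps27l, a close relative of Rps27, had 168, 120 and 100.7 CPM in woodrats against 46.9, 56.2 and 102 CPM in lab rats. It overlapped through lab rat 3, with a log2 fold change of 0.92 (SE 0.35, FDR = 0.0638). Rps27l held 21.1%, 12.2% and 15.8% of its pair in woodrats against 4.22%, 5.79% and 4.10% in lab rats. The summed pair had a log2 fold change of -0.92 (SE 0.43, FDR = 0.118), near the -1.11 of Rps27 alone.

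Rpl3l, known as the form of Rpl3 in striated muscle, had 172, 169 and 201 CPM in woodrats against 69.7, 88.7 and 134 CPM in lab rats. Every woodrat was above every lab rat, with a log2 fold change of 0.89 (SE 0.29, FDR = 0.0387) that did not pass the threshold. It held 8.32%, 6.07% and 8.19% of the pair in woodrats against 3.11%, 3.97% and 3.15% in lab rats. Woodrat samples also had the higher markers of smooth muscle, a tissue other than striated muscle, at 35165 CPM or more against 16684 CPM or less. A link between these markers and Rpl3l was not tested. Rpl22l1 held 23.9% ± 4.8 of its pair in woodrats against 17.4% ± 1.1 in lab rats (SD, n = 3 each), and its log2 fold change was 0.47 (FDR = 0.261). Rpl36al, the autosomal copy of Rpl36a, held 89.5% ± 3.6 and 86.1% ± 2.1 (SD, n = 3 each), with a log2 fold change of -0.28 (FDR = 0.607).

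**Figure D5:**
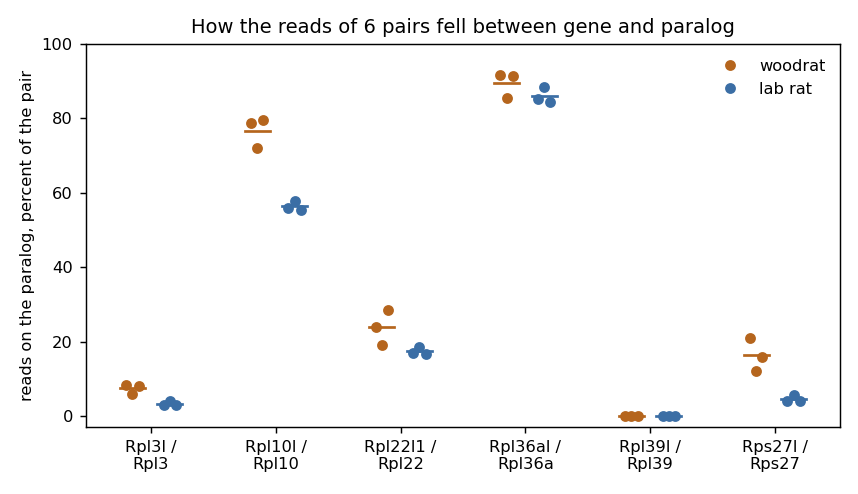
Reads on the paralog as percent of the reads on gene and paralog together (vertical axis) for 6 pairs (horizontal axis), with a point for each animal and a line at the mean of each species. For the Rpl10l and Rpl10 pair, woodrats lie between 72.0% and 79.5% and lab rats between 55.3% and 57.7%.

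The other symbols of the rule are not parts of the mature ribosome. Rpl7l1, a relative of Rpl7 in the nucleolus, had 8.01, 7.22 and 12.1 CPM in woodrats against 44.6, 60.5 and 31.8 CPM in lab rats. The groups were far apart, and Rpl7l1 was lower in woodrats by a log2 fold change of -2.32 (SE 0.34, FDR = 0.00184), a call kept with any 1 animal left out and lost with the replicate block (FDR = 0.0139). Its counts were 41 to 102 in woodrats against 165 to 366 in lab rats, lower than those of any core gene in the same animal. Its SE was still below that of every core gene, the smallest of which was 0.37 for Rps3. Rpl7 itself had a log2 fold change of -0.42 (FDR = 0.402). Rps19bp1, a binding partner of Rps19, had 26.2, 20.5 and 17.5 CPM in woodrats against 33.4, 41.4 and 69.9 CPM in lab rats without overlap, and a log2 fold change of -1.17 (SE 0.33, FDR = 0.0229), while Rps19 had -0.02 (FDR = 0.976), a value that turned positive without lab rat 3. DESeq2 called Rps19bp1 (adjusted p = 0.00769).

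In the wider translation machinery the calls differed between lists, beside 20% of all genes. None of the 14 messages that start with a pyrimidine tract was called (1 at an unadjusted p below 0.05, and the median log2 fold change was -0.06). The lowest value was that of Eef1g, a subunit of elongation factor 1, at -0.83 (FDR = 0.0928). Of 20 genes for ribosome assembly and ribosomal RNA synthesis, 2 were lower and 1 was higher in woodrats, with a median of -0.66 and 17 negative values. At an unadjusted p below 0.05 there were 10 of the 20, a share close to that over all genes (6261 of 12603). Summed, these 20 genes stood at 1879 to 2153 CPM in woodrats against 2402 to 3221 CPM in lab rats, without overlap.

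The 3 called assembly genes belong to small nucleolar particles that modify ribosomal RNA. Nop56, of the particles that guide methylation, had 54.9, 56.5 and 59.2 CPM in woodrats against 119, 130 and 190 CPM in lab rats (log2 fold change -1.36, FDR = 0.00446). Nhp2, of the particles that guide pseudouridine formation, had 19.3, 19.2 and 19.3 CPM in woodrats against 45.5, 52.6 and 88.4 CPM in lab rats (log2 fold change -1.69, FDR = 0.0036). Dkc1, the enzyme of those same particles, lay in the opposite direction. It had 27.7, 32.9 and 42.5 CPM in woodrats against 3.85, 3.47 and 6.16 CPM in lab rats (log2 fold change 2.94, SE 0.34, FDR = 0.000828), and its call held with any 1 animal left out and with the block. Nop56 lost its call without woodrat 1, woodrat 2, lab rat 1 or lab rat 2 (FDR up to 0.0236) and Nhp2 without woodrat 2 or lab rat 2 (FDR up to 0.0184).

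The rule does not cover all proteins of the ribosome. Gnb2l1, which encodes the small subunit protein RACK1, had a log2 fold change of -0.17 (FDR = 0.738), within the range of the core, and 0.17 without lab rat 3. Levels are compared between species for the same gene only, because gene lengths were not used here, and the shares of different genes are not set against each other as levels.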

How the data were processed

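The authors trimmed read pairs with Trimmomatic, merged overlapping mates, aligned reads of both species to the protein-coding transcripts of mouse GENCODE M7 with cross_match and deposited the number of reads per gene and animal as raw counts. Reads went to the gene with the best alignment score on the correct strand, and genes with ambiguous reads were removed by the authors, so a gene farther from mouse, or with a close copy, may be counted less completely in 1 species. The submitters' notes name the build mm9. Counts were scaled by TMM and tested in R 4.3.3 with edgeR 4.0.16 (glmQLFTest, prior count 0.125, FDR below 0.01) over the 12603 genes that reached 1 CPM in 3 or more animals. A further fit used the sum of the 78 core genes as library size without TMM. DESeq2 1.42.0, other filters, scalings, a replicate block and leaving out each animal were alternatives. Fits were tested on simulated data, where no unchanged gene was called. Of 100 genes changed 2-fold, 3 were found in the main fit and 6 relative to the core. Of 100 changed 4-fold, 60 and 64 were found. In the measured counts the biological coefficient of variation was 47.8% relative to the core, against 34.0% in the main fit. Whether the results on simulated data hold when core genes rise together in an animal, as in lab rat 3, was not tested. Single values per animal were compared by exact permutation over the 20 splits of 6 animals. Named genes were the called core genes, the 5 core genes at each end of the log2 fold changes, the 5 with the highest mean CPM, a list of genes by role, and the paralogs with their parents. A gene that this rule names is not reported here, and the plots leave it out. Members, lists and rules were chosen with earlier results of these data known. Figures were drawn with matplotlib 3.10.9. Within a species, core counts of all pairs of animals differed beyond counting error.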

Additional observations from a re-analysis of the deposited data

How the results depend on the processing

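Ribosomal protein symbols called numbered 2, and 5 with DESeq2, 0 with the replicate block, 6 at an FDR below 0.05 and 1 with any 1 animal left out (lowest 1, highest 1). Core genes called relative to the complex numbered 1, then 0 with the replicate block, 4 at an FDR below 0.05, and 0 to 1 with 1 animal left out. Translation machinery genes called numbered 3, then 6 with DESeq2, 1 with the block, 9 at an FDR below 0.05 and 1 to 3 with 1 animal left out. Over all 12603 genes 2516 were called, 3916 by DESeq2 and 716 with the block. At an FDR below 0.05 there were 5026, and 898 to 2626 were called with 1 animal left out. Relative to the core 723 of all genes were called, and 2348 at an FDR below 0.05. Same-numbered animals did not deviate together (correlations -0.289, -0.0881 and -0.279), so the numbers pair nothing. The SD of 0.418 over core genes was 0.397 with paralog pairs summed (an alternative chosen after seeing the data), 0.404 without the paired genes and 0.410 to 0.439 with 1 animal left out, and the span from the 10th to the 90th percentile was 0.841. It was 0.677 to 0.744 for the mitochondrial ribosome and 0.354 to 0.389 for the proteasome with 1 animal left out. Without lab rat 3, 37 of 78 core genes changed sign, and 0 to 11 did under every other alternative tried. Of the genes whose fold change is printed here, directions turned for Rpl28 without lab rat 1 or 2 (range with 1 animal left out -0.046 to 0.76) and without lab rat 3 for Rpl10l (-0.30 to 0.24), Rpl36al (-0.49 to 0.24) and Gnb2l1 (-0.36 to 0.17). Rplp0 (-0.16 to 0.45 with 1 animal left out) turned with DESeq2 size factors (-0.012) and DESeq2 (-0.012) and without woodrat 2, lab rat 1 or lab rat 2. Rps19 (-0.23 to 0.48) turned with total counts (0.012), with the replicate block (0.081) and without woodrat 3 or lab rat 3. The call of Psmd14 was lost with any 1 animal left out and that of Mrps10, of the mitochondrial ribosome, without woodrat 2, lab rat 1 or lab rat 2. The cause of these changes was not tested. The lowest core count in any animal was 300 reads (Rpl36a), so counting error was small beside the spread between animals (biological coefficient of variation 34.0%).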

Other observations

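Symbols that start with Rps6k, which share the symbol stem of the ribosomal protein Rps6, were kept out of the rule. Of 10 such symbols, 9 were tested and 1 was called, beside 20% of all genes. Rps6ka6 had 9.77, 25.1 and 56.7 CPM in woodrats 1, 2 and 3 and 4.10, 4.14 and 1.73 CPM in lab rats 1, 2 and 3, and was higher in woodrats by a log2 fold change of 3.18 (SE 0.65, FDR = 0.00632). All woodrats were above all lab rats, with a wide spread among the woodrats. The call was lost with total counts as library sizes (FDR = 0.0164), with the replicate block (FDR = 0.0359) and without woodrat 2, lab rat 1, lab rat 2 or lab rat 3 (FDR 0.0164, 0.019, 0.0204 and 0.0335).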
